A study of Mus musculus with 3 samples.

Results

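The genes described here encode ligands of the tumor necrosis factor (TNF) superfamily in RAW264.7 cells, an established mouse macrophage line. The genes were chosen by name, *Tnf*, *Lta*, *Ltb*, *Tnfsf4*, *Tnfsf9*, *Tnfsf10*, *Tnfsf12*, *Tnfsf13b*, *Tnfsf14* and *Tnfsf15*, and these 10 of 26840 gene symbols on the array were carried by 16 probes. All macrophages received the TLR4 ligand lipopolysaccharide (LPS) at 50 ng/mL. A first culture received LPS alone, another had first been exposed for 24 h to *Lacticaseibacillus rhamnosus* CRL1505 at 50000000 cells/mL, and the remaining culture had been exposed in the same way to *Lactiplantibacillus plantarum* CRL1506. The bacteria were washed away before LPS. The duration of LPS is 12 h in the design text and 3 h in the sample descriptions, and the arrays do not settle which is right. RNA from each condition was hybridised to 1 one-colour Agilent array, so no value below has a replicate error or a test, and unstimulated macrophages were not analysed here. The LPS and CRL1506 arrays shared a slide and scan run, whereas the CRL1505 array was on another slide, so that strain and slide cannot be told apart in any CRL1505 value.

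Ligands of this superfamily are mostly made as membrane proteins that assemble into trimers, and several are released by proteases. They bind receptors of the TNF receptor superfamily, which recruit TRAF adaptors to activate NF-kB or, through death domains, start apoptosis. In macrophages TNF is the classic early product of TLR4 stimulation, and other members instruct T cells, B cells and stromal cells.

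Signals are background-corrected Cy3 intensities in scanner units. Levels are log2 intensities from which the 75th percentile over that array's gene spots was taken away, and ratios are differences of such levels on the log2 scale. A gene was compared where at least 1 of the arrays measured it well above background by the scanner software's own test, and was called at 2-fold or more. Where only 1 of both arrays measured it, the ratio is a bound. Levels of different probes are not comparable, so the values of a gene are set only against its own values on the other arrays.

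Of the arrays, 48.5 to 55.3% of 59305 gene spots were well above background, lowest on the CRL1505 array, and the intensity at the 75th percentile ranged from 517.0 to 743.1. The median SD of probes spotted 10 times on an array was 0.041 to 0.046 (log2), and ratios from different probes of the same gene had a median SD of 0.228 for CRL1505 and 0.215 for CRL1506 against LPS. All 8 macrophage markers were well above background on every array, with a summed level of 694 on the LPS array, 671 on the CRL1505 array and 563 on the CRL1506 array, in units of the 75th-percentile signal. Such sums add levels of different probes, so the brightest markers weigh most in them (here *Lyz2*, at a log2 level of 8.40 with LPS). They do not describe each marker of a set. Single macrophage markers still differed from LPS, with *Adgre1* at 2.27 for CRL1505 and 1.003 for CRL1506, *Fcgr1* at 2.40 and 0.95, and *Csf1r* at -1.47 and -0.87. The second *Adgre1* probe gave 1.25 and 0.85, the latter short of 2-fold. For CRL1506, 4 of the 7 other normalizations kept *Adgre1* past 2-fold. Of the T cell markers, 3 of 5 were measured on all arrays (summed levels 4.40, 9.66 and 5.78 in the same order), and *Lck* was 1.46 higher with CRL1505. Of the B cell markers, 2 of 5 were measured on all arrays (0.48, 0.23 and 0.39). None of 4 fibroblast markers (0.12, 0.24 and 0.43) and none of 4 epithelial markers (0.31, 0.07 and 0.16) was measured on all arrays. Of the fibroblast markers, 0 were well above background with LPS, 1 with CRL1505 and 3 with CRL1506. *Dcn* and *Col1a1* were at least 2.04 and 1.85 higher with CRL1506, and *Col1a2* at least 1.81 higher with CRL1505. *Cd79b* and *Epcam* gave -1.21 and -1.39 with CRL1506 and bounds of -1.95 and -1.93 with CRL1505. The part of these marker genes in the results was not tested. Fewer expressing cells and less RNA per cell cannot be told apart in such bulk RNA.

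For the probes, 12 of 16 carried a RefSeq accession that matched the same symbol, and each of the 10 genes had at least 1 such probe. *Tnfsf10* had 2 probes whose readings parted, and the first 30 bases of each are therefore shown. The first is the RefSeq-matched probe at chr3:27238508-27238567 (mm9, plus strand). The second lies at chr3:27241303-27241349 (mm9), is annotated to an Ensembl transcript, and consists of 4 copies of a 15-base unit, of which 1 copy is in capitals.
Tnfsf10, RefSeq-matched probe: gggaaatgttaaactttgtaaactctgaaa
Tnfsf10, repeat probe: AGCGCCCCTGACAACagcgcccctgacaac

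The 250 bases before the start site are shown for *Tnf* and *Ltb*, neighbours that gave different ratios, and for *Tnfsf10* and *Tnfsf15*, the ligand genes at least 2-fold higher with CRL1505 than on each other array. They are RefSeq windows on GRCm38.p6, read 5′ to 3′ on the gene's strand, at chr17:35202008-35202257 (minus) for *Tnf*, chr17:35194257-35194506 (plus) for *Ltb*, chr3:27316827-27317076 (plus) for *Tnfsf10* and chr4:63745060-63745309 (minus) for *Tnfsf15*. Capitals mark matches to any of 5 motifs searched on both strands.
Tnf: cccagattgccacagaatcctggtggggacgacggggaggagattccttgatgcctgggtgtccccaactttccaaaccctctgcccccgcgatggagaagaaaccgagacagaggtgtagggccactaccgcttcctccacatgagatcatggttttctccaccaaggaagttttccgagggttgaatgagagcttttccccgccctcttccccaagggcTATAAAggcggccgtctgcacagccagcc
Ltb: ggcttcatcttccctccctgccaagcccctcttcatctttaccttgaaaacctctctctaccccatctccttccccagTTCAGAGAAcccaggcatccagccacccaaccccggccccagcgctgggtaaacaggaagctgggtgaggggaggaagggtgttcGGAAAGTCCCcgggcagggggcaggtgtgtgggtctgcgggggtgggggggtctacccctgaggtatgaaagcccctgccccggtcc
Tnfsf10: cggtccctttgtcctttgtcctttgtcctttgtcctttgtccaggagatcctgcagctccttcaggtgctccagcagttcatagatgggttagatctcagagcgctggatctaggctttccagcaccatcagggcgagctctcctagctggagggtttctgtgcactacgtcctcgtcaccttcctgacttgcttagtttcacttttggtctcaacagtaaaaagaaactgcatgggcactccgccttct
Tnfsf15: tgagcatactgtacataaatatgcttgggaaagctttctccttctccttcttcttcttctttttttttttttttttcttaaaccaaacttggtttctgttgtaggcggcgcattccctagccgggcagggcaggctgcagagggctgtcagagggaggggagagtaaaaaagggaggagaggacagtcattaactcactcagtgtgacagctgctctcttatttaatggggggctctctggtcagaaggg

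The motifs were the NF-kB consensus, which 3.90% of all 32851 windows of this length hold, the interferon-stimulated response element core (GAAA, any 2 bases, GAAA; 2.98%), the gamma-activated site TTCNNNGAA (7.02%), the AP-1 site TGANTCA (6.75%) and the TATA box TATAAA (12.4%). The *Tnf* window held a TATA box from -29 to -24. The *Ltb* window held an NF-kB match from -87 to -78 and a gamma-activated match from -172 to -164, and these did not overlap. None of the 5 motifs matched in the *Tnfsf10* and *Tnfsf15* windows. Of the other genes, *Lta* held 2 gamma-activated matches and a TATA box, the second *Tnfsf13b* start held an interferon-stimulated and an AP-1 match, and *Tnfsf14* held an AP-1 match. In all, 7 of the 10 genes had a window, and *Tnfsf4*, *Tnfsf9* and *Tnfsf12* had none.

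**Figure D1:**
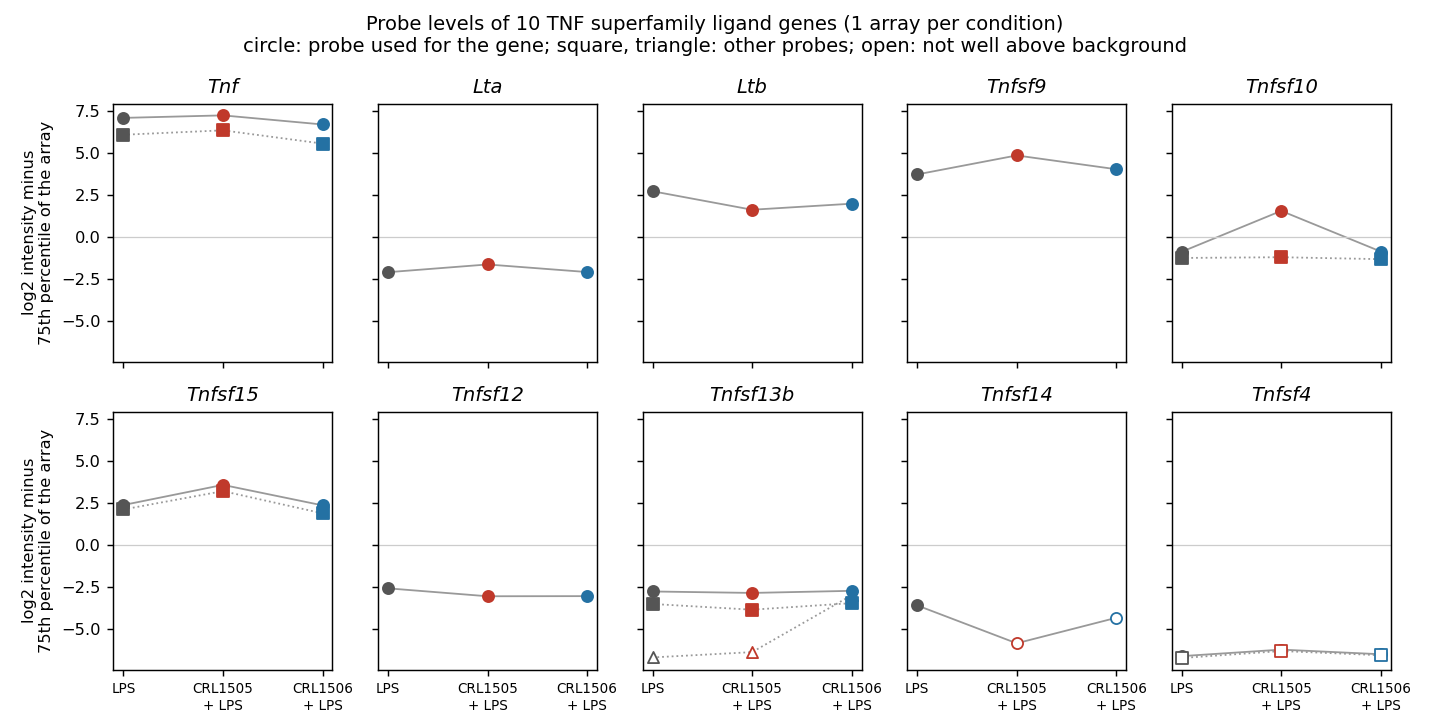
Level of each of the 16 probes (y axis, log2 intensity minus the 75th percentile of the array) on the LPS, CRL1505 + LPS and CRL1506 + LPS arrays (x axis), with 1 array per condition. Circles are the probe used for each gene, squares and triangles its other probes, and open symbols were not well above background. The *Tnfsf10* circle stands at 1.56 on the CRL1505 array against -0.87 and -0.86 on the others, while its square stays between -1.32 and -1.20.

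With CRL1505 pretreatment, the mRNAs of TRAIL (*Tnfsf10*), TL1A (*Tnfsf15*) and the 4-1BB ligand (*Tnfsf9*) were more than 2-fold higher than with LPS alone, lymphotoxin beta (*Ltb*) was more than 2-fold lower, and *Tnf* itself differed little. With CRL1506 pretreatment no ligand gene was called at 2-fold against LPS alone by the probe used for it. *Tnfsf14* gave only a bound there (at least 1.67-fold lower). A *Tnfsf13b* probe that was not the one used was at least 1.505 higher on the log2 scale. Of 9 ligand genes that could be compared for CRL1505, 3 were higher, where 9.93% of all 15603 genes compared were higher, and 1 was lower, where 8.41% were. Of 9 compared for CRL1506, 0 were higher (background 5.67% of 16279 genes) and 0 lower (3.53%). The median ratio of the ligands was 0.15 for CRL1505 and -0.02 for CRL1506, against 0.01 and -0.06 over all genes compared. Both comparisons use the same LPS array.

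Between the strains, 8 ligand genes could be compared, of which 2 were higher after CRL1505 (background 9.02% of 15780 genes) and 0 lower (7.47%), with a median of 0.50 against 0.03 over all genes.

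**Figure D2:**
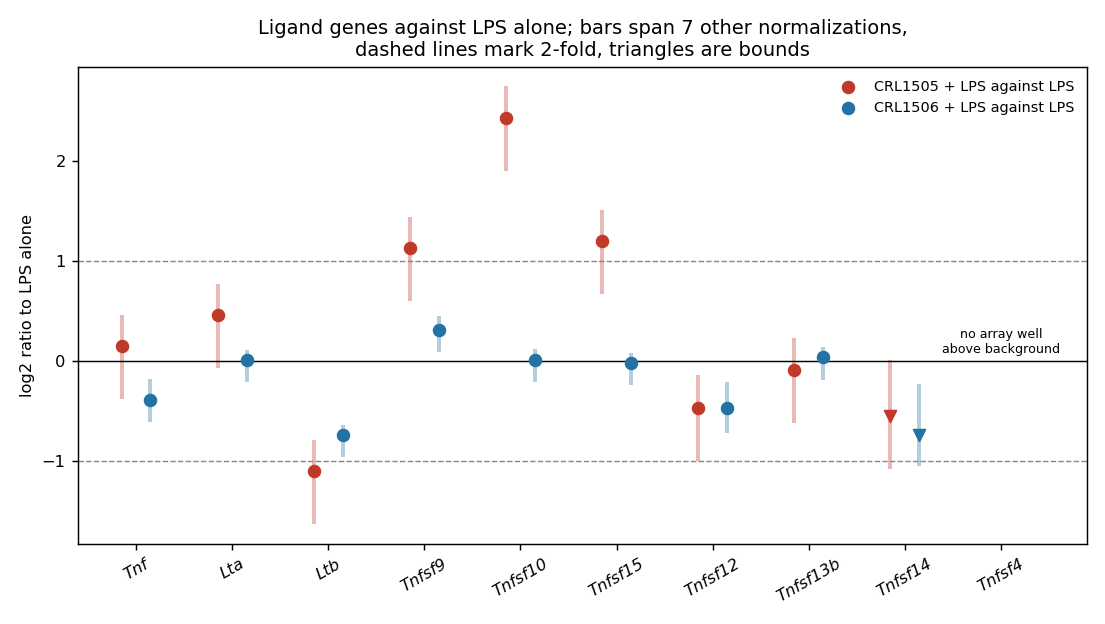
Log2 ratio to LPS alone (y axis) of each ligand gene (x axis) for CRL1505 + LPS (red) and CRL1506 + LPS (blue), with bars spanning 7 other normalizations, dashed lines at 2-fold and triangles for bounds. *Tnfsf10* stands at 2.43 for CRL1505 and 0.01 for CRL1506, and *Ltb* is below 0 for both.

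*Tnf*, the founding cytokine of the family, was read at an intensity of 101295 with LPS alone, 78174 with CRL1505 and 72548 with CRL1506 at its probe at chr17:35336795-35336854 (mm9, minus strand). After scaling these were levels of 7.09, 7.24 and 6.70. The CRL1506 array was the lowest of the 3 and the CRL1505 array, whose raw intensity lay below that of LPS, was the highest once scaled. The ratios were 0.15 for CRL1505 and -0.39 for CRL1506 against LPS, and the direction for CRL1505 turned with the scaling (-0.36 to 0.45), whereas that for CRL1506 did not (-0.59 to -0.20). A second *Tnf* probe gave 0.26 and -0.53. Neither strain moved *Tnf* by 2-fold, and between the strains it was 0.54 higher after CRL1505.

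*Lta* and *Ltb* encode lymphotoxin alpha and lymphotoxin beta, which flank *Tnf* and form a membrane heterotrimer that binds the lymphotoxin beta receptor. *Ltb* (chr17:35333097-35333156, mm9, plus strand) was read at 4917 with LPS alone, 1596 with CRL1505 and 2765 with CRL1506. LPS alone was the highest and CRL1505 the lowest of the arrays. The ratios were -1.10 for CRL1505, a 2.14-fold lower level, and -0.74 for CRL1506. Under a scaling to the array median the CRL1505 ratio was -0.80, short of 2-fold. Between the strains the difference was -0.36, and its sign turned with the scaling (-0.76 to 0.14).

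*Lta* (chr17:35340275-35340334, mm9, minus strand) was read at 174.5 with LPS, 167.1 with CRL1505 and 164.9 with CRL1506. These intensities lay close together, and the ratios of 0.46 and 0.01 were under 2-fold, with a direction that turned with the scaling for CRL1505 (-0.05 to 0.76) and for CRL1506 (-0.19 to 0.09). The probes of *Ltb*, *Tnf* and *Lta* lie within 7.24 kb of chromosome 17, and along this stretch the CRL1505 ratio was -1.10, 0.15 and 0.46 as scaled here.

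*Tnfsf10* encodes TRAIL, a death ligand that is also known as an interferon-inducible gene. Its RefSeq-matched probe, whose first bases are shown above, was read at 405.4 with LPS alone, 1523 with CRL1505 and 384.2 with CRL1506. The CRL1505 array stood alone, and the other arrays were nearly equal. The ratio for CRL1505 was 2.43, a 5.40-fold higher level, and 1.81% of all genes compared were at least as far in that direction. For CRL1506 it was 0.01, and between the strains 2.42 (5.35-fold). The 7 other normalizations kept the CRL1505 ratio between 1.93 and 2.73. The repeat probe read 314.0, 225.3 and 280.5 and gave 0.04 and -0.07, so the change was seen by 1 of the 2 *Tnfsf10* probes, and averaging both gave 1.24. None of the *Tnfsf10* spots was uneven on any array, and 0 other gene probes on the array contain the 15-base unit.

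*Tnfsf15* encodes TL1A, a co-stimulator of T cells through the death receptor DR3. Its probe at chr4:63388134-63388193 (mm9, minus strand) was read at 3905 with LPS, 6234 with CRL1505 and 3618 with CRL1506. As for *Tnfsf10*, the CRL1505 array was high and the others lay together. The ratio for CRL1505 was 1.20 (2.29-fold), that for CRL1506 was -0.02, and between the strains it was 1.22 (2.33-fold), although 0.82 with spike-in scaling and 0.97 in the authors' log2 table. A second probe at chr4:63385801-63385860 gave 1.09 for CRL1505. Scaled to the spike-in probes, the CRL1505 ratio was 0.69.

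*Tnfsf9* encodes the 4-1BB ligand, a co-stimulatory partner of the receptor 4-1BB on T cells. It was read at 9839 with LPS alone, 14983 with CRL1505 and 11447 with CRL1506 at chr17:57247062-57247121 (mm9, plus strand). Both pretreated arrays were above LPS, with ratios of 1.13 (2.19-fold) for CRL1505 and 0.31 for CRL1506. The gene lay near the threshold, and it was under 2-fold for CRL1505 by quantile normalization, by spike-in scaling (0.62) and in the authors' log2 table. Between the strains it was 0.82 higher after CRL1505.

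The remaining ligands were dim. *Tnfsf14*, which encodes LIGHT, a ligand of the herpesvirus entry mediator and of the lymphotoxin beta receptor, was read at 62.2 with LPS alone (chr17:57329192-57329251, mm9, minus strand), whereas the readings of 9.1 with CRL1505 and 35.0 with CRL1506 were not well above background. As scaled here it was at least 1.46-fold lower with CRL1505 and at least 1.67-fold lower with CRL1506. These bounds moved with the processing, on the log2 scale from -0.01 with normexp background correction to -1.05 with spike-in scaling for CRL1505 and from -0.24 with normexp to -1.03 with quantile normalization for CRL1506, so that for CRL1505 hardly any difference was shown under normexp. The probes of *Tnfsf9* and *Tnfsf14* lie within 82.19 kb. As scaled here, *Tnfsf9* was at 1.13 with CRL1505, and the bound for *Tnfsf14* was -0.55.

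*Tnfsf12*, which encodes TWEAK, was read at 125.8, 63.1 and 85.7 on the LPS, CRL1505 and CRL1506 arrays and gave -0.47 and -0.46. *Tnfsf13b* encodes BAFF, the B cell survival factor. Its RefSeq-matched probe was read at 110.5, 72.4 and 106.6 and gave -0.09 and 0.04, and a second probe lay at 66.0, 36.3 and 64.1. The remaining *Tnfsf13b* probe rose above background on the CRL1506 array alone, at 88.8 against 7.3 with LPS and 6.3 with CRL1505. It was at least 1.505 higher than LPS on the log2 scale. The spot itself was not uneven, but 3 of the 20 spots nearest to it were, and the other *Tnfsf13b* probes differed from LPS by less than 2-fold. *Tnfsf4*, which encodes the OX40 ligand, did not rise well above background with either of its 2 probes.

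**Figure D3:**
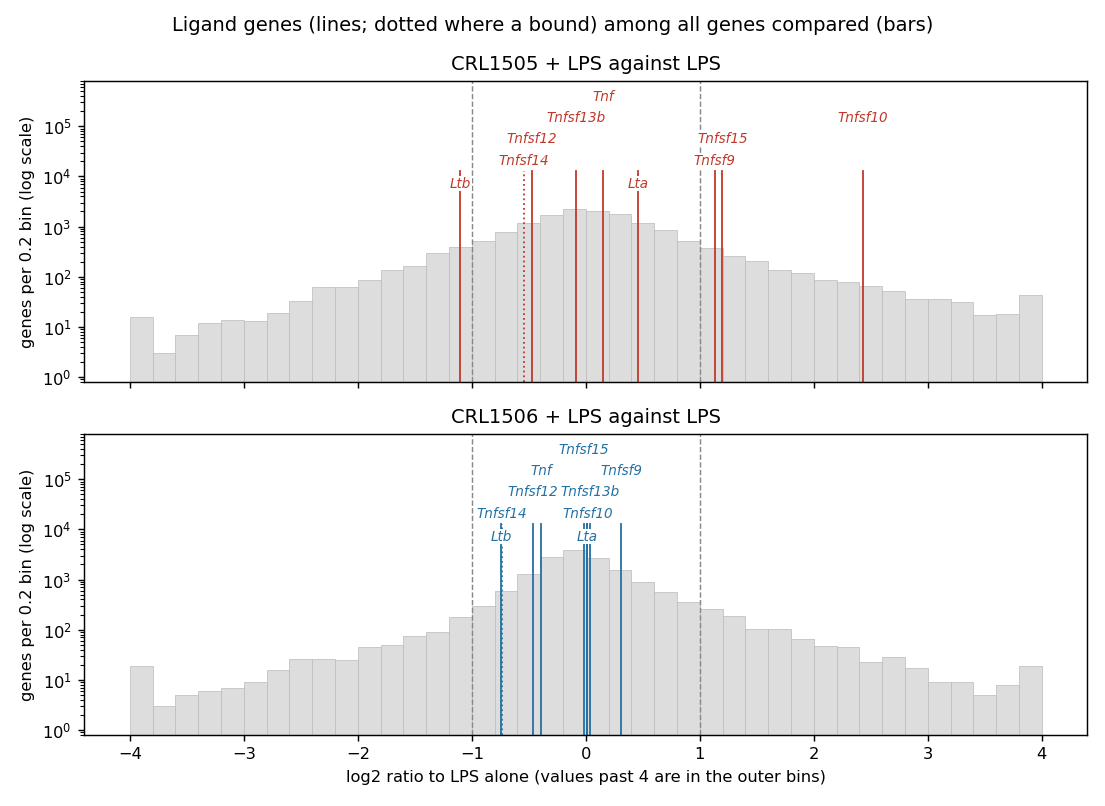
Number of genes (y axis, log scale) by log2 ratio to LPS alone (x axis, bins of 0.2) for CRL1505 + LPS (top) and CRL1506 + LPS (bottom), with each ligand gene as a line, dotted for a bound, and dashed lines at 2-fold. The CRL1505 distribution is the broader, with a median distance from 0 of 0.41 against 0.26, and 4 ligands lie past 2-fold there and 0 for CRL1506.

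The distance of a ratio from 0 depends on the scaling, which shifts all genes of a comparison together. The median of all genes measured for CRL1505 against LPS was 0.06 as scaled here, 0.35 when arrays were shifted to a common median and -0.45 when they were scaled to the spike-in probes. Taken relative to that median, *Ltb* lay between -1.23 and -1.16 over the 7 other normalizations, *Tnfsf9* between 0.96 and 1.07, *Tnfsf15* between 1.004 and 1.14 and *Tnfsf10* between 2.15 and 2.38. The order of these genes was kept, and *Tnfsf9* and *Tnfsf15* stayed at the 2-fold line.

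**Figure D4:**
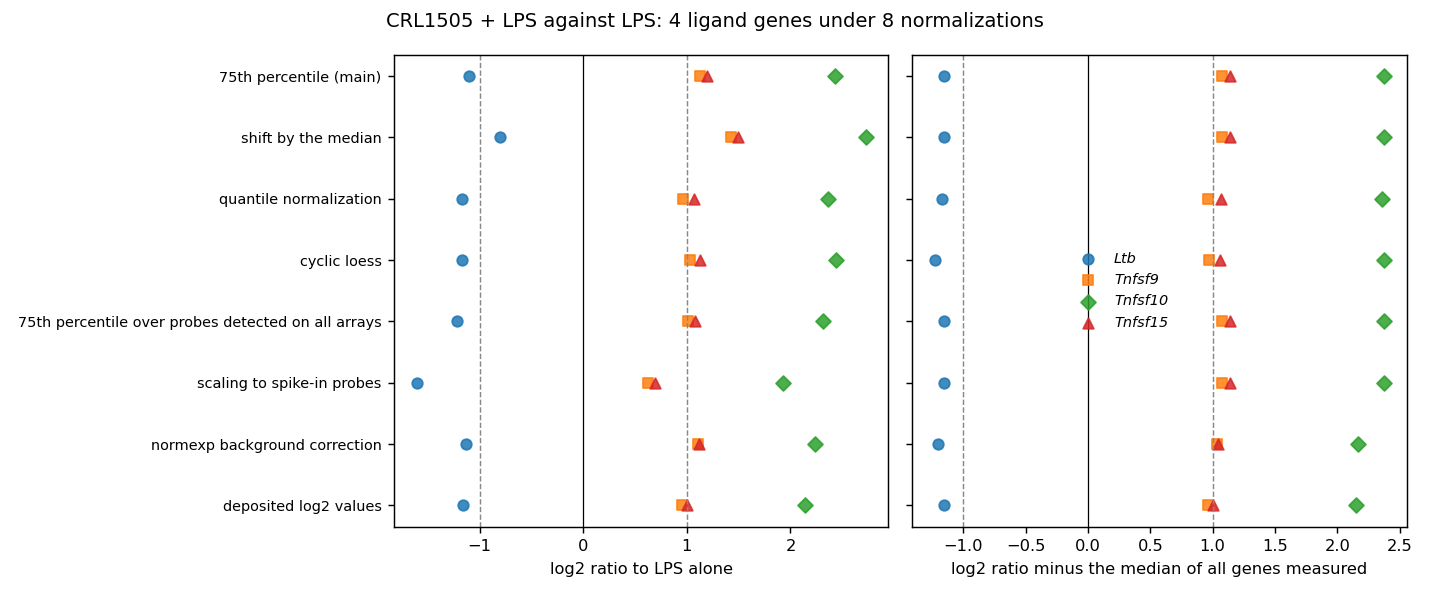
CRL1505 + LPS against LPS for 4 ligand genes under the scaling used here and 7 others (y axis): log2 ratio (left) and log2 ratio minus the median of all genes measured on both arrays (right), with dashed lines at 2-fold. *Tnfsf10* is right of the 2-fold line under each, and the spread of *Ltb* narrows to between -1.23 and -1.16 on the right, where shifts of whole arrays cancel by construction.

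Of the receptors of these ligands, 11 of 15 could be compared for CRL1505, where 4 were at least 2-fold higher and 0 lower (median 0.17, backgrounds as above), and 10 for CRL1506, where 0 were higher and 1 lower (median -0.05). *Tnfrsf9*, which encodes 4-1BB, stood at levels of 1.56 with LPS, 2.98 with CRL1505 and -0.36 with CRL1506. It was thus 1.42 above LPS with CRL1505 and 1.92 below it with CRL1506 (ratio -1.92), and its second probe gave 1.07 and -2.02. *Tnfrsf9* was the receptor with opposite ratios past 2-fold, and its ligand *Tnfsf9* was at 1.13 and 0.31.

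*Tnfrsf1b*, which encodes TNF receptor 2, was 1.46 higher with CRL1505 and at 0.10 with CRL1506, but its second probe gave 0.89 and 1.17. *Tnfrsf1a*, which encodes TNF receptor 1, the death domain receptor of TNF, gave 0.95 and -0.19. *Tnfrsf14*, which encodes the herpesvirus entry mediator, gave 1.23 and -0.21. *Tnfrsf10b*, which encodes the mouse death receptor for TRAIL, was measured on the CRL1505 array alone, at least 2.39 higher than LPS as scaled here and at least 1.31 under the normalization that gave the lowest bound, from a spot that was uneven on that array. *Ltbr*, which encodes the lymphotoxin beta receptor, was at 0.17 for both strains. *Tnfrsf12a*, which encodes the TWEAK receptor Fn14, gave -0.22 and -0.66. *Tnfrsf13b*, which encodes the BAFF receptor TACI, gave -0.70 and -0.44. *Tnfrsf4*, which encodes OX40, gave 0.04 and 0.72. Of all the receptors compared, 4 of 11 were below LPS with CRL1505. Of the 7 other normalizations, 6 kept the CRL1505 calls of *Tnfrsf9* and *Tnfrsf1b*, and 5 kept that of *Tnfrsf14*. *Tnfrsf25*, which encodes the receptor of TL1A, could not be compared, since no array measured it well above background.

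Of 8 other superfamily ligands, 7 had a probe of that name and 2, *Tnfsf8* and *Eda*, could be compared. Neither was called at 2-fold for either strain. For CRL1505 both ratios were bounds, at -0.22 for *Tnfsf8* and -0.93 for *Eda*, so that larger differences are possible. Of the 7 other normalizations, 2 took the *Eda* bound past 2-fold.

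Among 8 genes for shedding and processing of ligands, 1 of 6 compared was higher with CRL1505 and 1 of 7 with CRL1506, and none was lower (backgrounds of 9.93% and 5.67% higher). *Rhbdf2*, which encodes iRhom2, the partner that matures the TNF-releasing protease ADAM17 in macrophages, gave 1.24 and -0.13. *Sppl2a*, which encodes an intramembrane protease that cleaves the TNF stalk, gave 0.24 and 1.24, and its 3 probes ranged from 0.24 to 1.57 for CRL1505 and from -0.14 to 1.24 for CRL1506. *Adam17* itself gave -0.58 and -0.43, but its 3 probes ranged from -1.30 to -0.45 for CRL1505, so that 1 of them was past 2-fold lower. *Furin*, a proprotein convertase, gave 0.19 and 0.24, and its second probe 0.98 and -0.41, which turns the direction for CRL1506.

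Of 8 genes for decay and translation of *Tnf* mRNA, 1 was higher and 1 lower with CRL1505, and 0 were higher and 2 lower with CRL1506 (backgrounds of 9.93% higher and 8.41% lower for CRL1505, and 5.67% and 3.53% for CRL1506). *Zfp36* encodes tristetraprolin, which binds AU-rich elements and promotes *Tnf* mRNA decay, and it gave 1.36 and -0.11. *Zfp36l1*, its paralog, gave -1.40 and -1.58, although its second probe gave 0.28 and -0.29. *Zc3h12a*, which encodes the ribonuclease regnase-1, gave -0.21 and -1.18, and its second probe gave -0.49 for CRL1506, short of 2-fold. The RNA-binding protein genes *Elavl1* (0.56 and -0.08) and *Tia1* (0.38 and 0.77) were under 2-fold, although the *Tia1* probes ranged from 0.02 to 1.14 for CRL1506.

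All 16 genes for receptor-proximal signaling could be compared. With CRL1505, 2 were higher and 0 lower (backgrounds of 9.93% and 8.41%), with a median of 0.46. With CRL1506 0 were higher and 0 lower, with a median of -0.17. The medians over all genes compared were 0.01 and -0.06. Such medians depend on the scaling, and that of all genes measured for CRL1505 fell from 0.06 to -0.45 with spike-in scaling. The medians of this list were not recomputed under other scalings. *Tnfaip3*, which encodes the NF-kB inhibitor A20, gave 1.11 and -0.29. *Traf1*, an adaptor gene induced by NF-kB, gave 1.05 and 0.14. Of the 7 other normalizations, 3 kept the *Tnfaip3* call for CRL1505 (lowest ratio 0.61) and 1 kept the *Traf1* call (lowest 0.54). *Nfkbia*, which encodes I-kappa-B alpha, gave 0.40 and -0.08, and *Cflar*, which encodes the caspase-8 inhibitor c-FLIP, gave 0.85 and 0.20, with 5 probes from 0.06 to 1.49 for CRL1505.

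**Figure D5:**
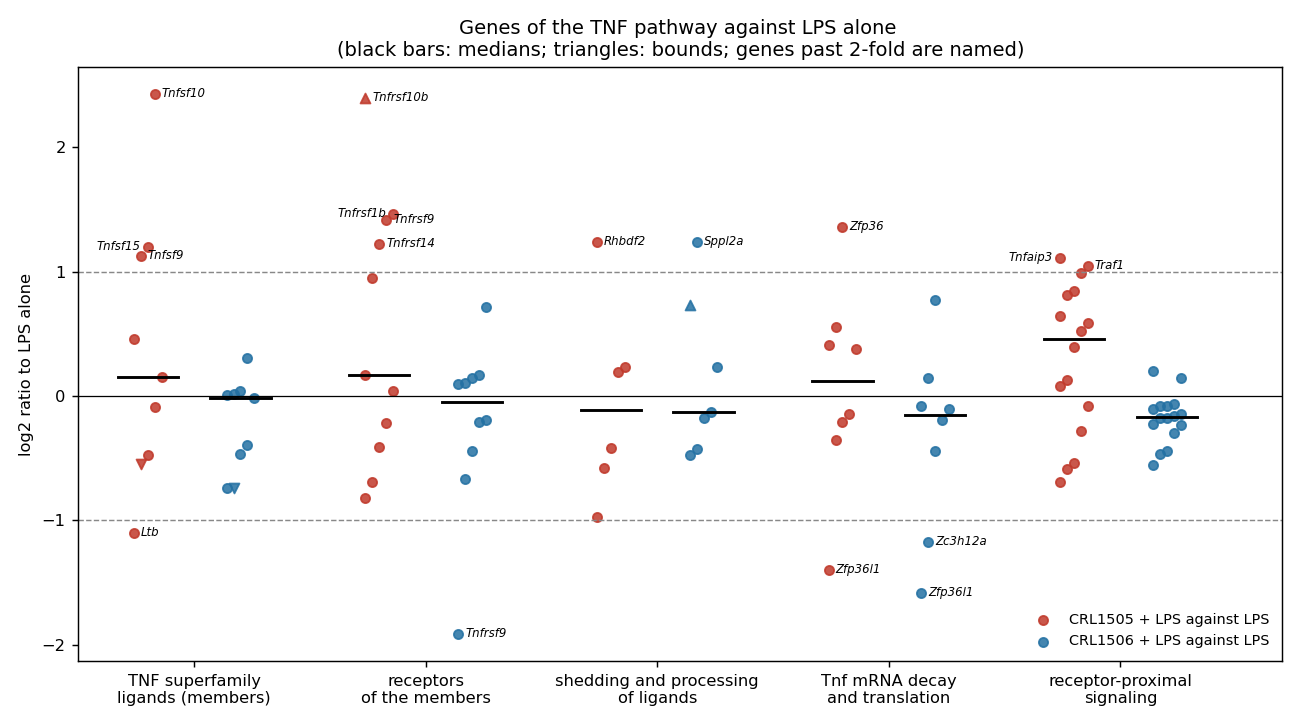
Log2 ratio to LPS alone (y axis) of the ligand genes and of 4 lists of pathway genes (x axis) for CRL1505 + LPS (red) and CRL1506 + LPS (blue), with black bars at the medians, triangles for bounds, dashed lines at 2-fold and names for genes past it. As scaled here, the receptor-proximal signaling genes center on 0.46 for CRL1505 and on -0.17 for CRL1506, and all genes compared on 0.01 and -0.06. *Tnfrsf9* is the gene named on opposite sides of 0.

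Genes whose pair of ratios lay nearest to a ligand's were sought among 11606 genes measured on all 3 arrays, as a description over 3 points. For *Tnfsf10* these were *Igtp* (distance 0.147), *Nr4a1* (0.187) and *Gbp2b* (0.193), and 4 genes lay within 0.2. For *Ltb*, 70 genes lay that near, led by *Ppp1r21*, *Kcng2* and *Cdk1*. For *Tnfsf9* it was 119, led by *Dcp2*, *Klf4* and *Sema3c*, and for *Tnfsf15* 133, led by *Plekhg3*, *Il27* and *Mtfr2*. Ratios at least as high as that of *Tnfsf10* were held by few genes in any case (1.81% of those compared for CRL1505).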

How the data were processed

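RNA of 1 culture per condition (LPS, CRL1505 + LPS, CRL1506 + LPS) was labelled with Cy3 and hybridised to 3 Agilent mouse arrays. The authors deposited scanner intensity values for each array, which the file headers credit to Feature Extraction 12.0.3.1 with local background subtraction and detrending (the study's text names another version), and a log2 table normalized between arrays, for which the labels name limma and the methods GeneSpring. Each column of that log2 table ranked the spots much as the scanner values did (Spearman 0.949 to 0.981). Ranks cannot settle its unit or scale. Every column has a median of 6.77. The log2 table served as an alternative.

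From the deposited processed intensity, log2 values were set relative to the 75th percentile on each array (59305 gene spots). Outlier spots were left out, no gene spot was saturated, and spots of a probe were averaged. Each gene was read by its brightest probe, and the other probes of the ligand genes are given beside it, those of other genes where they differ in call or direction. Where only 1 of both arrays measured a probe well above background, the higher of the lowest such level and its own reading stood for the dim array, which makes the ratio a bound, and no ratio is given where that bound would turn the direction. A spot was called uneven where its mean exceeded its median pixel value by more than 0.2 (log2). Differences of at least 2-fold were counted, as the methods' fold criterion. Their t-test could not be run on 1 array per condition. The number of arrays limits the precision. Alternatives were other normalizations, including limma's quantile, cyclic loess and normexp (offset 50), other fold thresholds, no background filter and a mean over probes. The procedure was tested on simulated data.

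All 10 ligand genes are named. Of each pathway list, genes past 2-fold against LPS for either strain are named with the 2 brightest of the rest, besides a receptor of each ligand. Members, lists and rules were chosen with earlier results of these data known. Probe positions are on mm9 per the file headers, and promoter windows are RefSeq's on GRCm38.p6. Python 3.11.15, pandas 2.3.3, NumPy 2.4.6, R 4.3.3 and limma 3.58.1 were used.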

Additional observations from a re-analysis of the deposited data

Results flagged for a closer look

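The following genes, each read by its brightest probe, lay on opposite sides of the shared LPS array, with CRL1505 above it and CRL1506 below it. They were picked where both ratios exceeded the median SD between probes (0.228 and 0.215) and all 7 other normalizations kept both directions. Other genes, such as *Zfp36* and *Tnf*, also lay on opposite sides but fell short of this cut-off. With 1 array per condition this difference was not tested, and strain and slide cannot be told apart. *Tnfrsf9* was at 1.42 with CRL1505 and -1.92 with CRL1506. *Tnfaip3* was at 1.11 and -0.29. *Casp8*, which encodes an initiator caspase of death receptors, was at 0.81 and -0.23. *Tab2*, which encodes an adaptor of the kinase TAK1, was at 0.65 and -0.24, but its 3 probes ranged from -0.24 to 0.09 for CRL1506, so that they did not share a direction there. *Birc2*, which encodes the ubiquitin ligase cIAP1, was at 0.58 and -0.47.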

How the results depend on the processing

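No paired analysis was possible because each condition had 1 array, and leaving out a replicate was not possible for the same reason. Of the counts and medians recomputed, 101 stayed within 1.5 times the value given above or within the spread between probes, and 19 moved. The 101 include counts that stayed at 0. They also include the setting without uneven spots, which could not move any value, since no ligand spot was uneven. A change of sign was not labelled apart for the counts and medians, and the CRL1505 median changed sign with spike-in scaling. For CRL1505 against LPS, 3 ligand genes were higher and 1 lower. With arrays shifted to the median the lower count was 0 and the median ratio 0.45, and with spike-in scaling the counts were 1 higher and 2 lower and the median -0.36. The median of all genes measured was 0.35 and -0.45 under these scalings. The share of all genes called was not computed for the alternatives, so their counts have no background here. Without the background filter 2 were lower, and at 4-fold 1 was higher and 0 lower. For CRL1506 against LPS, where 0 passed in either direction, 1 was higher with a mean over probes, 1 lower after quantile normalization and 2 lower at 1.5-fold. Between the strains, 2 were higher, which became 4 with the median shift, 1 with spike-in scaling, 1 in the deposited log2 table and 1 at 4-fold, while 1 was lower without the filter and 1 with a mean over probes. The median between the strains was 0.99 with the median shift and 0.10 with spike-in scaling, where that of all genes measured was 0.58 and -0.31. Over 12 alternatives, *Tnfsf10* was past 2-fold for CRL1505 in 12, *Ltb* and *Tnfsf15* in 11 and *Tnfsf9* in 9. Over the 7 other normalizations alone it was 7 for *Tnfsf10*, 6 for *Ltb* and *Tnfsf15* and 4 for *Tnfsf9*. The remaining alternatives could not move *Ltb* or *Tnfsf9*, each read by 1 well-measured probe. Signal over background limits *Tnfsf14* to bounds and leaves *Tnfsf4* without a ratio. The causes of these shifts were not tested.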
